A study of Mus musculus with 80 samples.

Results

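The genes described here encode the enzymes, regulators and carriers of cholesterol and fatty acid synthesis, and were followed in mammary tumours driven by Myc. They were chosen by name, as a list of 33 genes of these pathways, with earlier results of these data known. For 31 of the 33 the array held a probe set named for that gene alone; Acat2 and Insig1 were not analysed here. All 31 exceeded an intensity of 74.6 on at least 10 of the 80 arrays and so stood among 8769 tested genes of 12393 with a named probe set. Where a gene had several probe sets, the brightest of those that passed this level was used. Values are given as log2(MAS5 intensity + 5), a scale on which 1 unit is a doubling for all but dim probe sets.

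The tumours arose in the mammary gland of FVB mice that carried Myc under the promoter of the mouse mammary tumour virus (MMTV), which is active in mammary epithelium, and every group shared this transgene. The groups were E2F1 null, E2F2 null, E2F3 heterozygous, and wild type for the E2F genes, each with 20 tumours, frozen once a primary tumour had reached its endpoint. The sources used here give no ages, and say nothing on whether tumours came from separate animals, so p-values measure the spread between these samples. Each label holds a number before a hyphen, and 46 of the 80 tumours shared it with another tumour of their group. What the number stands for is not stated, so it was treated as a random block in the genotype fits, and correlations were taken over the means of the 53 numbers (16 in E2F1 null, 11 in E2F2 null, 10 in E2F3 heterozygous and 16 in wild type tumours).

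Cholesterol is built from acetyl-CoA through mevalonate, the isoprenoid farnesyl diphosphate, squalene and lanosterol, and fatty acids are built from the same acetyl-CoA with NADPH as reductant. In mammals the sterol genes are driven mainly by the transcription factor SREBP-2 when membrane cholesterol is low, and the fatty acid genes by SREBP-1, with NF-Y and Sp1 as partners at many promoters. In the mammary gland lipid synthesis rises at lactation, when secretory cells make milk fat, and many tumours keep lipid synthesis on to make membranes.

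The promoters of 6 genes from the groups that move together below are shown for their motifs, with sequences from the RefSeq windows of build GRCm38.p6. They run from 250 bases before the annotated start of the gene up to it, 5′ to 3′ on the strand of the gene. Capitals mark CCAAT, the NF-Y motif, on either strand (ATTGG when it lies on the other), and in Hmgcs1 also TCACNCCAC, a sterol response element pattern.
Hmgcs1, chr13:119690101-119690350, plus strand: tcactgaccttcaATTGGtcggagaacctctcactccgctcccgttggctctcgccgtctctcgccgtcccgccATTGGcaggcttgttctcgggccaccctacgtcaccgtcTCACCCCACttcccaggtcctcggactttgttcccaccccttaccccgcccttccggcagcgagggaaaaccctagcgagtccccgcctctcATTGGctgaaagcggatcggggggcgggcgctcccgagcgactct
Mvd, chr8:122443423-122443672, minus strand: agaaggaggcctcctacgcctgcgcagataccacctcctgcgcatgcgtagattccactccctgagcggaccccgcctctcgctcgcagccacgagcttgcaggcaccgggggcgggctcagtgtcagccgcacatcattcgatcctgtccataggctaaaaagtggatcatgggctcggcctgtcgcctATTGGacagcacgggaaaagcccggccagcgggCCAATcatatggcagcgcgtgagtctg
Idi1, chr13:8885356-8885605, plus strand: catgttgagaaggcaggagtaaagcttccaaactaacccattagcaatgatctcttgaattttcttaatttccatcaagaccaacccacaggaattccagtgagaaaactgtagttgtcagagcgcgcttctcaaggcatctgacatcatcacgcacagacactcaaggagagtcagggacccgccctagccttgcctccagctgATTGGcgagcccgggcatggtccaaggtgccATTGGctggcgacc
Cyp51, chr5:4104698-4104947, minus strand: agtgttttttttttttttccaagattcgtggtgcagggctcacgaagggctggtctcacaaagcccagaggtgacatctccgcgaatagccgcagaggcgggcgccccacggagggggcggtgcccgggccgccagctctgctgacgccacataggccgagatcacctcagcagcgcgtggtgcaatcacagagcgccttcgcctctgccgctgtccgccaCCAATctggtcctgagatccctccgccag
Acss2, chr2:155517793-155518042, plus strand: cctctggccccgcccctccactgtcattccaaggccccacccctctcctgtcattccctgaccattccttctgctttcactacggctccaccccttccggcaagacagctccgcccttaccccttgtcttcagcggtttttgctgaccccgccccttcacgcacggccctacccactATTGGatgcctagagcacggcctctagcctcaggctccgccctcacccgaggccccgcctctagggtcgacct
Fasn, chr11:120824548-120824797, minus strand: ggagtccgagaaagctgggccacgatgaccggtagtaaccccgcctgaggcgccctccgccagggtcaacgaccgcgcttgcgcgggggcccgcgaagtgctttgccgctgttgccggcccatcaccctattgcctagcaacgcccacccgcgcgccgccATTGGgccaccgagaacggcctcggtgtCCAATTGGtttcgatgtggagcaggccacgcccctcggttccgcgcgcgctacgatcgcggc

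Windows were available for 26 of the 33 listed genes, 33 windows in all because some genes have several annotated starts. CCAAT was found on either strand in 33.8% of all 32851 windows, and in at least 1 window of 12 of 13 sterol synthesis genes, 6 of 10 fatty acid genes and 3 of 3 control genes. The GC box GGGCGG, the Sp1 motif, was found in 32.7% of all windows, and in 12 of 13 sterol synthesis genes and 5 of 10 fatty acid genes. TCACNCCAC was found in 1.05% of all windows and in 1 member, Hmgcs1, where it starts at position -137 from the start of the gene. CACGTG, the E-box that Myc and Max bind, was found in 6.02% of all windows and in Dhcr7, Hsd17b7, Sc5d, Elovl5 and Insig1. In Fasn, CCAAT on both strands overlaps at positions -62 and -59. Genes with several windows have more chances to hold a motif than a single window, and a match of letters is not a binding site.

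The tumours all expressed the epithelial markers Krt8 and Epcam. Krt8 lay between 12.18 and 13.92 and Epcam between 11.38 and 13.12 on the log2 scale in all 80 tumours. The targeted genes were checked first. Of the 2 probe sets for E2f1, one had a median of 6.42 in E2F1 null tumours and of 7.06 in wild type tumours, a log2 difference of -0.59 (SE 0.13, adjusted p = 0.0542 over all probe sets, limma). The other differed by -0.18 (SE 0.10, unadjusted p = 0.0774, limma), and the groups overlapped for both. The probe set for E2f3 differed by -0.19 between E2F3 heterozygous and wild type tumours (SE 0.12, unadjusted p = 0.103, limma), and E2f2 was not analysed here. No source used here says whether these probe sets lie in the deleted parts of the genes. One array, E2F1 null replicate 6, stood apart from the others. Its mean correlation with them was 0.807, against 0.848 for the next lowest and a median of 0.906, and it had the lowest value of all tumours for 5 of the 31 genes (Idi1, Dhcr7, Srebf1, Fasn and Elovl6).

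The lipid synthesis genes varied more from tumour to tumour than between genotypes. Their standard deviation over the 80 tumours ran from 0.286 for Hsd17b7 to 1.31 for Thrsp, with a median of 0.491, against a median of 0.358 over all tested genes. Genotype accounted for a median of 2.78% of the variance of the 31 genes, from 0.126% for Thrsp to 15.8% for Fads2, against a median of 3.57% over all tested genes. The genes with the widest spread were Thrsp, a lipogenic regulator, Acss2, which makes acetyl-CoA from acetate, the desaturases Fads1 and Fads2, and the stearoyl-CoA desaturase Scd1. A pair of tumours held the highest value of many genes: E2F1 null replicate 3 for 7 genes (Mvd, Msmo1, Hsd17b7, Dhcr7, Acss2, Elovl5 and Fads1) and wild type replicate 3 for 6 (Pmvk, Fdps, Sqle, Lss, Cyp51 and Nsdhl).

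In the early mevalonate steps, Hmgcs1, the synthase that makes HMG-CoA, had lowest, median and highest values of 9.78, 10.45 and 11.30 in E2F1 null tumours. They were 9.89, 10.58 and 11.37 in E2F2 null tumours, 10.13, 10.53 and 11.33 in E2F3 heterozygous tumours, and 9.83, 10.61 and 11.34 in wild type tumours. The 4 groups covered almost the same range. The fitted log2 difference of Hmgcs1 from wild type was -0.06 in E2F1 null (95% confidence interval from the SE, -0.31 to 0.19), 0.10 in E2F2 null (-0.15 to 0.36) and 0.06 in E2F3 heterozygous tumours (-0.19 to 0.32).

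Fdps, which joins isoprene units to farnesyl diphosphate, ranged from 9.04 to 11.26 with a median of 10.13 in E2F1 null tumours. It ranged from 9.63 to 11.47 with a median of 10.73 in E2F2 null tumours, from 9.16 to 11.21 with a median of 10.23 in E2F3 heterozygous tumours, and from 9.01 to 11.90 with a median of 10.20 in wild type tumours. The E2F2 null group sat highest at its median and the groups overlapped. Its log2 difference was 0.37 in E2F2 null over wild type (SE 0.20, unadjusted p = 0.0718, adjusted p = 0.788, limma) and -0.51 in E2F1 null over E2F2 null tumours (SE 0.20, unadjusted p = 0.0140, adjusted p = 0.443, limma). The other mevalonate enzymes with a probe set were Mvk, Pmvk, Mvd and Idi1, and their log2 differences from wild type in the other groups lay between -0.15 and 0.17.

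Among the 9 enzymes from squalene to cholesterol, Sqle, the squalene epoxidase, had medians of 10.13 in E2F1 null, 10.46 in E2F2 null, 10.33 in E2F3 heterozygous and 10.41 in wild type tumours. The lowest values were 9.22, 9.21, 8.78 and 8.86 in the same order of groups and the highest 11.02, 10.95, 10.89 and 11.04, so that the groups overlapped throughout. Msmo1, a sterol methyl oxidase, had the most negative difference of these 9 enzymes in E2F1 null over wild type tumours, -0.27 (SE 0.19, unadjusted p = 0.159, limma). The largest of the 9 in E2F2 null over wild type tumours was that of Sqle, 0.23 (SE 0.16, unadjusted p = 0.164, limma), followed by Lss, the cyclase that makes lanosterol, with 0.21 (SE 0.18, unadjusted p = 0.238, limma). None of these passed the test. Over all 9, which also hold Fdft1, the squalene synthase, Cyp51, Nsdhl, Hsd17b7, Sc5d and Dhcr7, the log2 differences from wild type lay between -0.27 and 0.09 in E2F1 null, -0.05 and 0.23 in E2F2 null and -0.10 and 0.06 in E2F3 heterozygous tumours.

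Of the genes of control and transport, Srebf2, which encodes SREBP-2, had medians of 8.44 in E2F1 null, 8.50 in E2F2 null, 8.47 in E2F3 heterozygous and 8.55 in wild type tumours. Its lowest and highest values were 7.67 and 9.07 in E2F1 null, 8.11 and 9.04 in E2F2 null, 7.74 and 9.34 in E2F3 heterozygous, and 7.55 and 9.05 in wild type tumours. Srebf1, which encodes SREBP-1, had medians of 11.45, 11.35, 11.43 and 11.38 in the same order. Stard4, a cytosolic carrier of sterols, differed most between E2F2 null and E2F3 heterozygous tumours, by 0.33 (SE 0.19, unadjusted p = 0.0786, limma). None of the 3 passed the test in any comparison.

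In fatty acid synthesis the supply gene Acss2 ranged from 6.64 to 10.50 with a median of 7.56 in E2F1 null tumours. It ranged from 6.42 to 10.30 with a median of 8.51 in E2F2 null tumours, from 6.52 to 10.08 with a median of 7.96 in E2F3 heterozygous tumours, and from 6.53 to 9.998 with a median of 7.59 in wild type tumours. Each group thus spanned more than 3 log2 units. The log2 difference in E2F1 null over wild type tumours was -0.26 (95% interval -0.93 to 0.41). Acss2 lies on chromosome 2 at 0.959 Mb from E2f1 in build GRCm38.p6, so for this gene the E2F1 genotype and the DNA linked to E2f1 cannot be told apart. Elovl1 lies 17.7 Mb from E2f2 on chromosome 4. Idi1 and Hmgcs1 lie 21.0 and 89.8 Mb from E2f3 on chromosome 13. How far linked DNA reaches around the targeted genes was not tested.

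Fasn, the multienzyme that builds palmitate, had medians of 11.03 in E2F1 null, 11.26 in E2F2 null, 11.14 in E2F3 heterozygous and 11.19 in wild type tumours. It spanned 10.14 to 11.94 in E2F1 null, 10.37 to 12.31 in E2F2 null, 10.70 to 11.80 in E2F3 heterozygous and 10.46 to 12.33 in wild type tumours. The groups overlapped, and the difference in E2F1 null over wild type tumours was -0.16 (95% interval -0.46 to 0.14). The other supply and synthesis genes were Acly, which makes acetyl-CoA from citrate, Me1, which makes NADPH, Thrsp, and Acaca, the acetyl-CoA carboxylase. None of them passed the test in any comparison. Thrsp, the most variable member, ranged from 9.31 to 13.33 with a median of 11.59 in E2F1 null tumours, from 6.43 to 12.94 with a median of 11.99 in E2F2 null tumours, from 8.17 to 13.12 with a median of 11.77 in E2F3 heterozygous tumours, and from 8.75 to 13.28 with a median of 11.37 in wild type tumours.

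The widest differences between genotypes belonged to Fads2, the delta-6 desaturase of polyunsaturated fatty acids. It ranged from 6.15 to 10.09 with a median of 7.80 in E2F1 null tumours, from 6.81 to 10.95 with a median of 8.96 in E2F2 null tumours, from 7.25 to 10.50 with a median of 8.95 in E2F3 heterozygous tumours, and from 7.02 to 10.34 with a median of 8.20 in wild type tumours. The E2F1 null group lay lowest at its median, and all groups overlapped. The log2 difference was -0.93 in E2F1 null over E2F2 null tumours (SE 0.31, unadjusted p = 0.00354, adjusted p = 0.430, limma) and -0.97 in E2F1 null over E2F3 heterozygous tumours (SE 0.31, unadjusted p = 0.00232, adjusted p = 0.995, limma). Against wild type tumours it was -0.51 in E2F1 null (SE 0.30), 0.41 in E2F2 null (SE 0.31) and 0.46 in E2F3 heterozygous tumours (SE 0.31). Fads1, the delta-5 desaturase beside it on chromosome 19, had a log2 difference of -0.68 in E2F1 null over E2F3 heterozygous tumours (SE 0.33, unadjusted p = 0.0398, adjusted p = 0.995, limma). After adjustment over all tested genes these differences of Fads1, Fads2 and Fdps did not pass. Scd1, which makes oleate, had medians of 11.35 in E2F1 null, 11.64 in E2F2 null, 12.25 in E2F3 heterozygous and 11.51 in wild type tumours, with a log2 difference of 0.44 in E2F3 heterozygous over wild type tumours (SE 0.33, unadjusted p = 0.183, limma). Elovl1, Elovl5, Elovl6 and Scd2 complete this branch, and the log2 difference of Elovl5 in E2F1 null over wild type tumours, 0.23, was the only positive one of its 7 genes.

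**Figure D1:**
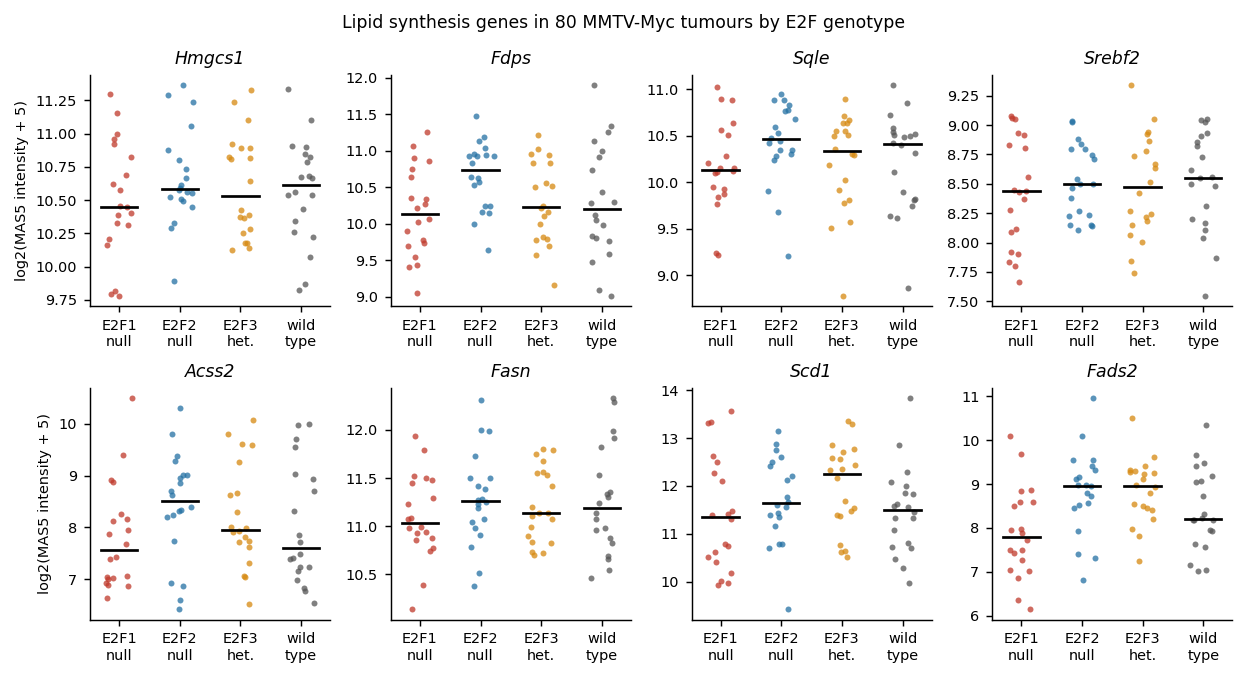
Values of 8 lipid synthesis genes in 80 tumours, as log2(MAS5 intensity + 5) on the vertical axis, with 20 tumours in each of the E2F1 null, E2F2 null, E2F3 heterozygous and wild type groups. Points are tumours and black lines are medians. The 4 groups overlap in every panel, and the lowest median of Fads2, 7.80, is that of the E2F1 null group.

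Across the whole list, 0 of the 31 genes passed an adjusted p of 0.05 in any of the 6 pairwise comparisons or in the moderated F test over the 4 genotypes (limma). The shares of all tested genes that passed were also small: 0.0456% for E2F1 null against wild type, 0.0228% for E2F2 null against wild type, and 0% for E2F3 heterozygous against wild type. They were 0.16% for E2F1 null against E2F2 null, 0.0798% for E2F1 null against E2F3 heterozygous, 0.0342% for E2F2 null against E2F3 heterozygous tumours, and 0.148% for the F test. A count of 0 members is therefore near the background in each comparison. At an unadjusted p under 0.05, 0 members passed in each of the 3 comparisons with wild type, where 1.28%, 6.14% and 0.661% of all tested genes did, in the order E2F1 null, E2F2 null and E2F3 heterozygous. Unadjusted, 2 members passed in E2F1 null against E2F2 null tumours (Fads2 and Fdps, with 9.58% of all tested genes) and 2 in E2F1 null against E2F3 heterozygous tumours (Fads2 and Fads1, with 3.4%). None passed unadjusted in E2F2 null against E2F3 heterozygous tumours, where 7.53% of all tested genes did. Fads2 alone passed unadjusted in the F test (p = 0.00687, adjusted p = 0.992, limma, with 4.24% of all tested genes).

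The signs of the differences leaned one way in some comparisons. In E2F1 null over wild type tumours 26 of 31 genes were negative and 5 positive, with a median log2 difference of -0.08, against 0.01 over all tested genes, of which 53.3% were positive. In E2F2 null over wild type tumours 24 were positive and 7 negative, with a median of 0.10, against -0.01 over all tested genes, of which 46.3% were positive. In E2F3 heterozygous over wild type tumours 14 were positive and 17 negative, with a median of -0.01, and 53.2% of all tested genes were positive. These 3 comparisons share the wild type tumours, and the genes are correlated with each other, so the counts are not independent. Between the null groups, E2F1 null over E2F2 null, 29 of 31 genes were negative, with a median of -0.19, against 0.02 over all tested genes, of which 56.1% were positive. In E2F2 null over E2F3 heterozygous tumours 25 of 31 were positive, with a median of 0.09, against -0.02 over all tested genes, of which 44.5% were positive. In E2F1 null over E2F3 heterozygous tumours 10 were positive and 21 negative, with a median of -0.06, and 50.8% of all tested genes were positive. These pairwise comparisons share groups as well. By branch, the medians in E2F1 null over E2F2 null tumours were -0.15 for the 6 mevalonate genes, -0.15 for the 9 genes from squalene to cholesterol, -0.29 for the 4 supply genes and -0.19 for the 7 genes of elongation and desaturation. The median SE of a single gene in that comparison was 0.16.

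**Figure D2:**
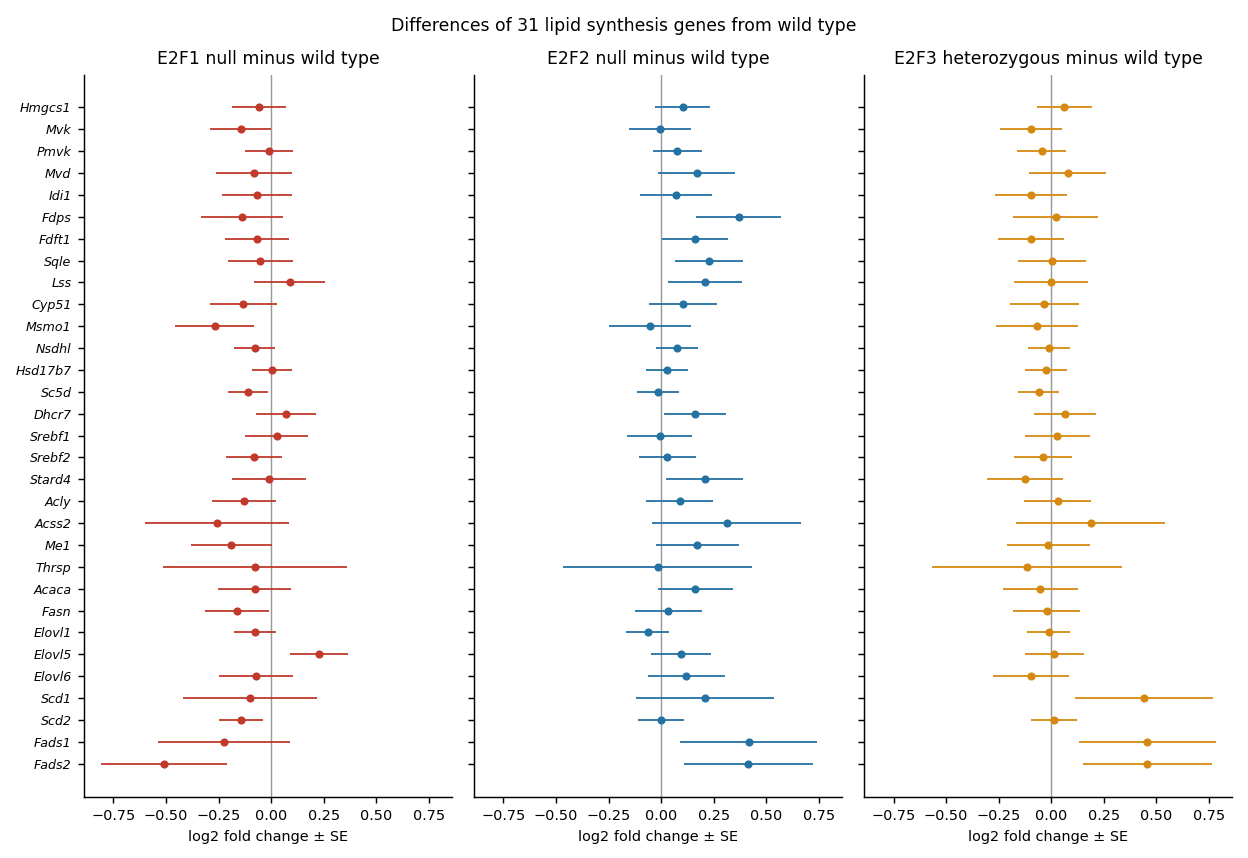
Log2 differences of 31 genes (horizontal axis) in tumours of the E2F1 null, E2F2 null and E2F3 heterozygous groups over wild type tumours, ordered by branch down the vertical axis; points are limma estimates and bars are 1 SE. None passed the adjusted threshold, and the longest distances from 0 belong to Fads2, Fads1 and Scd1.

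Other genes of the same pathways, listed from textbook knowledge but with earlier results of these data known, also gave counts of 0. Of 27 further genes of sterol synthesis, uptake and efflux, 18 were tested, and 0 passed the adjusted threshold in any comparison or in the F test. Of 35 further genes of fatty acid synthesis and handling, 29 were tested and 0 passed (limma). At an unadjusted p under 0.05, 1 to 3 of the 18 sterol genes and 0 of the 29 fatty acid genes passed in each. Their median log2 differences in E2F1 null over E2F2 null tumours were 0.06 and -0.10.

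The lipid synthesis genes moved together across tumours. Among the 15 tested enzymes of sterol synthesis, the 105 pairs had Pearson correlations from 0.12 to 0.86 over the 53 label numbers, with a median of 0.54, and all 105 were above 0. Over all pairs of tested genes the median was 0.01, and 50.8% of pairs were above 0. Every gene was tested against all other tested genes by permutation with 100000 resamples and adjusted over those genes. Of the 210 tests among sterol genes, 176 (83.8%) were positive at an adjusted p under 0.05, against 14% of all tests of these genes. Among the 13 genes of supply, synthesis, elongation and desaturation of fatty acids, the median of the 78 pairs was 0.38, from -0.50 to 0.90. Of their 156 tests 84 (53.8%) were positive and 10 negative, against 12.5% positive and 17.1% negative of all tests of these genes. Between a sterol and a fatty acid gene the median of 195 pairs was 0.23, and 113 of 390 tests (29%) were positive. Without E2F1 null replicate 6 the 3 medians were 0.56, 0.40 and 0.22.

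Within each genotype the sterol pairs had a median correlation of 0.44 in E2F1 null, 0.33 in E2F2 null, 0.57 in E2F3 heterozygous and 0.72 in wild type tumours. The fatty acid pairs had medians of 0.38, 0.41, 0.29 and 0.46 in the same order. These medians rest on 16, 11, 10 and 16 label numbers, and their differences were not tested.

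**Figure D3:**
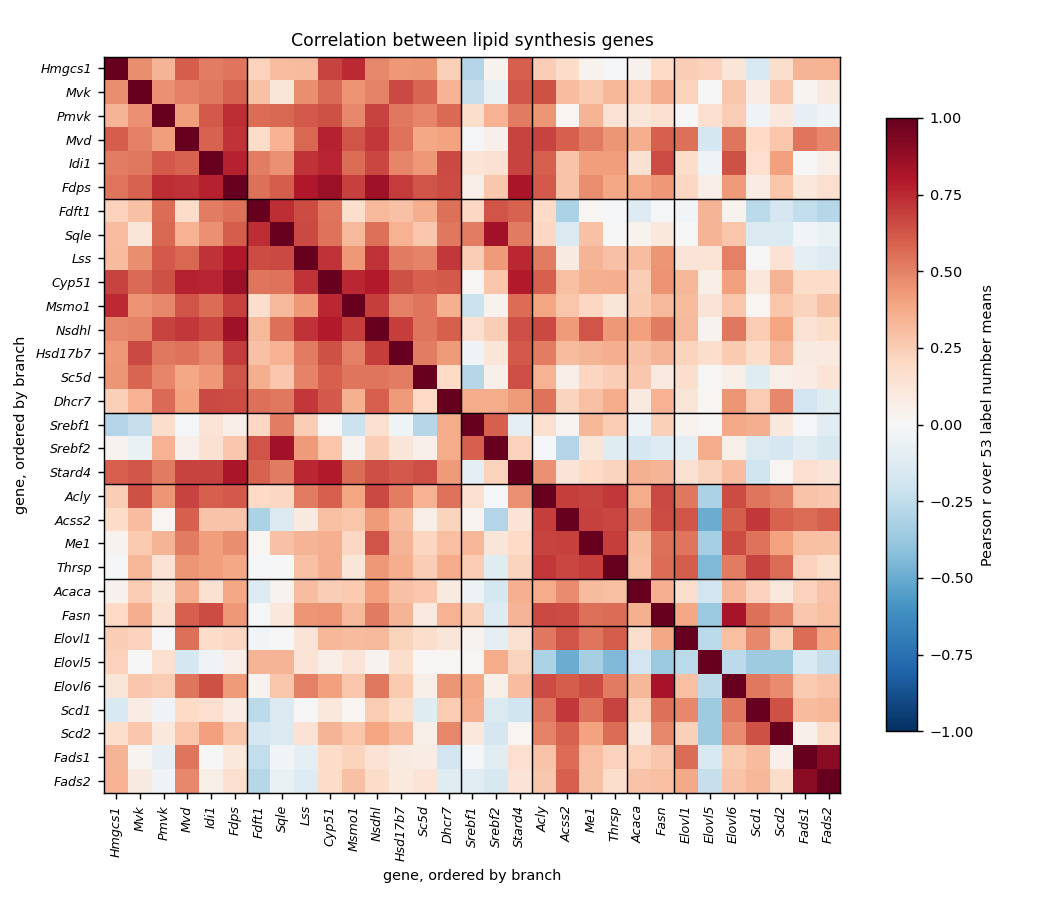
Pearson correlation between 31 lipid synthesis genes over 53 label number means, with genes ordered by branch on both axes and black lines between branches. Red is positive and blue negative; the block of 15 sterol genes has a median of 0.54 between pairs, and Elovl5 forms the blue stripe among the fatty acid genes.

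Fdps had the closest partners among the sterol genes. It rose with Cyp51, the lanosterol demethylase (r = 0.86, Spearman's rho = 0.84), with Nsdhl, a decarboxylase of the late pathway (r = 0.85, rho = 0.86), and with the carrier Stard4 (r = 0.81, rho = 0.78). For these 3 pairs the permutation p was 1e-05 for both measures, the smallest that 100000 resamples can give (adjusted p = 9.92e-05 for r). Without the 2 label numbers farthest from the median of Fdps, r was 0.83, 0.83 and 0.80. Within the genotypes, r of Fdps and Cyp51 was 0.77 in E2F1 null, 0.76 in E2F2 null, 0.79 in E2F3 heterozygous and 0.93 in wild type tumours. For Fdps and Stard4 it was 0.80, 0.09, 0.76 and 0.92 in the same order, and that difference was not tested. Fdps, Cyp51, Stard4 and the other genes given as anchors below, apart from Hmgcs1 and Fasn, were singled out after their values were seen.

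Hmgcs1, the entry gene of the sterol branch, was correlated at an adjusted p under 0.05 with 6 of 30 other members, all positive, while 0.251% of all tested genes were positive with it. The 6 were Msmo1 (r = 0.75, rho = 0.73), Cyp51 (r = 0.68, rho = 0.63), Mvd (r = 0.60, rho = 0.60), Stard4 (r = 0.60, rho = 0.53), Fdps (r = 0.53, rho = 0.49) and Idi1 (r = 0.51, rho = 0.54). Adjusted p-values for r ran from 0.00974 to 0.0351 (permutation, 53 label numbers). The count depended on the unit and on the gene taken as anchor. With the 80 tumours as units it was 14, but tumours that share a label number then count as independent. The share of all tested genes is not given for that setting, so the 14 cannot be set against a background. With Cyp51 in place of Hmgcs1 it was 22, where 12.3% of all tested genes were positive. With Srebf2, whose protein drives sterol genes, Hmgcs1 had r = 0.04 (permutation p = 0.787, 53 label numbers).

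Fasn was correlated with 20 members positively and with 1, Elovl5, negatively, against 18.3% and 23% of all tested genes. The closest were Elovl6, which elongates palmitate (r = 0.82, rho = 0.77), Acly (r = 0.66, rho = 0.62), Acss2 (r = 0.65, rho = 0.55) and, from the sterol branch, Idi1 (r = 0.65, rho = 0.64). Adjusted p for r was 1.66e-04 for these 4 (permutation, 53 label numbers). Without the 2 label numbers farthest from the median of Fasn, r was 0.77, 0.59, 0.62 and 0.63. Without E2F1 null replicate 6, in which Fasn was lowest of all tumours, 19 members passed, and the correlations of Fasn with Dhcr7 (r = 0.25, adjusted p = 0.159) and Acaca (r = 0.33, adjusted p = 0.0509) did not.

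Taken gene by gene, the number of other members positively correlated with a sterol gene was highest for Mvd and Nsdhl, 24 each of 30, where 14.3% and 16.3% of all tested genes were. Sc5d, a late desaturase, was positive with 11 (1.87% of all tested genes positive and 2.65% negative), Hsd17b7, a reductase, with 17 (8.75%), and Mvk, the mevalonate kinase, with 14 (7.5%). Stard4 was positive with 18 and negative with 0, against 13.7% and 20.4% of all tested genes.

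Elovl5, which elongates polyunsaturated fatty acids, was negative with 3 members and positive with 1, against 6.59% and 7.47% of all tested genes. Both counts, out of 30 other members, are near those shares. Its r was -0.50 with Acss2 (rho = -0.51, adjusted p = 0.00517), -0.44 with Thrsp (rho = -0.47, adjusted p = 0.0112) and -0.37 with Fasn (rho = -0.31, adjusted p = 0.0466, permutation, 53 label numbers). In E2F3 heterozygous tumours, with 10 label numbers, the r of Elovl5 and Acss2 was 0.13, against -0.66 in wild type tumours. The rank correlation of Elovl5 with Fasn did not pass from the side of Fasn (adjusted p = 0.0657).

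The highest correlation of the list joined the neighbours Fads1 and Fads2 (r = 0.90, rho = 0.89, permutation p = 1e-05 for both). Their r was 0.91 in E2F1 null, 0.87 in E2F2 null, 0.94 in E2F3 heterozygous and 0.89 in wild type tumours. Fads1 and Fads2 start 0.120 Mb apart on chromosome 19, and Scd1 and Scd2, which start 0.101 Mb apart on the same chromosome, had r = 0.63. A chromosome profile was taken for each label number as the median, over the tested genes of a chromosome other than members, of the values centred per gene, minus that median over all tested genes. With the chromosome 19 profile held constant, r was 0.86 for Fads1 and Fads2 and 0.56 for Scd1 and Scd2.

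The 2 SREBP genes were correlated with few members, as were Hmgcs1, Acaca, Fads1, Fads2 and Elovl5. Acaca and Fads1 were positive with 4 members each and Fads2 with 5, where 3.82%, 10.2% and 10% of all tested genes were. Srebf2 was correlated with 7 members positively, where 16.6% of all tested genes were, and Srebf1 with 4, where 7.94% were and 6.93% were negative, so that the 7 and 4 of 30 are near or above those shares. The closest to Srebf2 was Sqle (r = 0.84, rho = 0.84, adjusted p = 2.38e-04 for r, permutation, 53 label numbers). Both lie on chromosome 15, 22.8 Mb apart, and Sqle starts 2.67 Mb from Myc. Srebf2 had r = 0.83 with the chromosome 15 profile, built from 354 genes, and Sqle r = 0.69, while the median over 8729 genes with their own chromosome was 0.15 and that of the 31 members 0.06. With that profile held constant, Sqle and Srebf2 had r = 0.66, and Hmgcs1 and Srebf2 had r = 0.24. Over all sterol enzymes, r with Srebf2 then lay between 0.16 (Msmo1) and 0.66 (Sqle). It went from 0.16 to 0.46 for Idi1 and from -0.07 to 0.34 for Mvk, but from 0.63 to 0.54 for Fdft1. Over the fatty acid members it then lay between -0.16 (Scd1) and 0.27 (Elovl6). Correlations with a chromosome profile, or with it held constant, are descriptions over 53 label numbers and were not tested. Srebf1, on chromosome 11, had r = 0.60 with Srebf2 (adjusted p = 0.00187, permutation, 53 label numbers) and r = 0.29 with it at constant chromosome 15 profile.

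**Figure D4:**
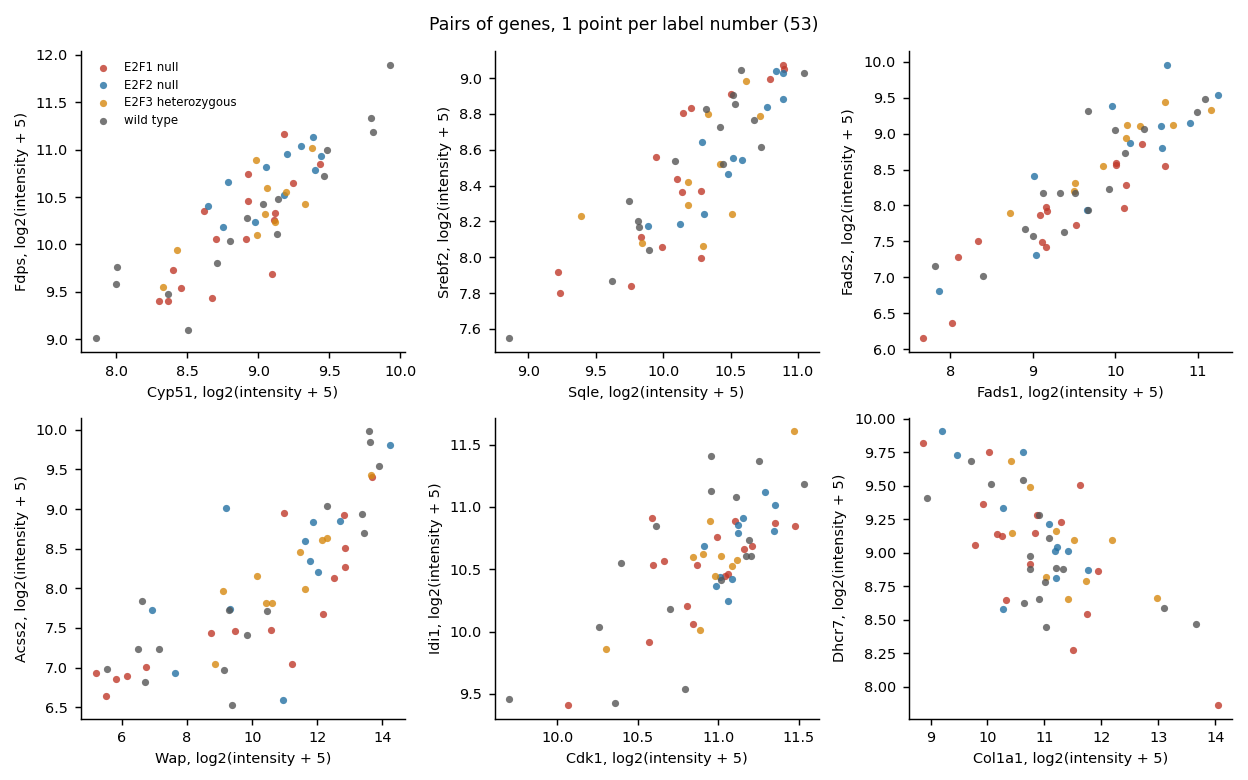
Pairs of genes as log2(intensity + 5) on both axes, with 1 point for each of 53 label numbers, coloured by genotype. Fdps with Cyp51, Srebf2 with Sqle, Fads2 with Fads1, Acss2 with Wap and Idi1 with Cdk1 rise together, and Dhcr7 falls as Col1a1 rises (r = -0.69).

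Sterol genes moved with markers of proliferation. Of 4 listed markers 3 were tested (Mki67, Top2a and Cdk1), and 30 of the 45 tests of a sterol gene against them were positive (66.7%, against 14% of all tests of sterol genes) and 0 negative. For 9 of the 15 sterol genes all 3 markers passed. Idi1, which isomerises the isoprene unit, had r = 0.72 with Cdk1, 0.72 with Top2a and 0.68 with Mki67, and each was above 0.55 within every genotype. Fdps had r = 0.68 with Cdk1, and within the genotypes 0.71 in E2F1 null, 0.03 in E2F2 null, 0.69 in E2F3 heterozygous and 0.69 in wild type tumours. In E2F2 null tumours, with 11 label numbers, r was below 0 for 10 of the 15 sterol genes with Mki67, 9 with Top2a and 2 with Cdk1, among them Dhcr7 (r = -0.68), Fdps (r = -0.41) and Nsdhl (r = -0.34) with Mki67 and Fdps with Top2a (r = -0.23). In the E2F1 null, E2F3 heterozygous and wild type groups r was below 0 in 1 such case, Sc5d with Mki67 in E2F1 null tumours (r = -0.03). These differences between genotypes were not tested. Of the 39 tests of a fatty acid gene against the same markers, 2 were positive (5.13%, against 12.5% of all tests of fatty acid genes). The summed intensity of the 3 markers had medians of 7191 in E2F1 null, 7979 in E2F2 null, 7434 in E2F3 heterozygous and 7336 in wild type tumours, with ranges of 4151 to 9883, 5811 to 11269, 4924 to 12636 and 4240 to 10937.

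Sterol genes moved against markers of stromal cells and of basal and myoepithelial cells, which are epithelial. With 5 macrophage markers, 49 of 75 tests were negative (65.3%, against 18.5% of all tests of sterol genes) and 0 positive. With 6 fibroblast markers 44 of 90 were negative (48.9%), with 4 endothelial markers 29 of 60 (48.3%), and with 4 basal and myoepithelial markers 32 of 60 (53.3%). Fatty acid genes were negative in 27.7% of tests with macrophage markers and 28.8% with endothelial markers, and positive in none, against 17.1% negative of all tests of fatty acid genes. With fibroblast markers they were positive in 11 and negative in 7 of 78 tests, and with basal and myoepithelial markers in 7 and 7 of 52. Dhcr7, the last enzyme of the pathway, had r = -0.69 with the collagen gene Col1a1 and was negative with all 6 fibroblast markers, while Fads1 was positive with all 6 (median r = 0.40). In E2F1 null replicate 6, the array that stood apart, Dhcr7 was lowest of all tumours (7.86) and Col1a1 was 14.04. The part of that array in the correlation of Dhcr7 with Col1a1 was not tested. In bulk tumours, fewer cells of a type and less RNA per cell cannot be told apart. The summed fibroblast markers ranged from 2924 to 72733 in E2F1 null, 3896 to 27718 in E2F2 null, 5678 to 51265 in E2F3 heterozygous and 3010 to 60919 in wild type tumours. The summed macrophage markers ranged from 2511 to 27839, 3436 to 11020, 3119 to 26864 and 2611 to 30752 in the same order. The part of proliferation and of stromal content in the correlations between sterol genes was not tested.

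Fatty acid genes moved with markers of milk secretion. Of 10 listed secretory markers 9 were tested, and 88 of 117 tests of a fatty acid gene were positive (75.2%, against 12.5% of all tests of fatty acid genes) and 4 negative. For sterol genes 9 of 135 tests were positive and 9 negative (6.67% each), below the 14% and 18.5% of all tests of sterol genes. Acss2 passed with all 9, among them Xdh, which is needed to release milk fat (r = 0.83, rho = 0.85), Btn1a1 of the milk fat globule membrane (r = 0.80, rho = 0.81) and Wap, a whey protein (r = 0.80, rho = 0.82). Within the genotypes r of Acss2 and Wap was 0.83 in E2F1 null, 0.62 in E2F2 null, 0.89 in E2F3 heterozygous and 0.85 in wild type tumours. Acss2 also had r = 0.84 with Elf5, the transcription factor of secretory alveolar cells, listed among the luminal markers. Of 8 listed luminal markers 7 were tested, and they differed from each other. Fatty acid genes were positive in 36 and negative in 3 of 91 tests with them, and sterol genes in 10 and 6 of 105. Over the 31 members, Elf5 was positive with 13 and negative with 1. Those counts were 11 and 0 for Cldn3, 11 and 2 for Cldn7, and 2 and 0 for Epcam. They were 3 and 2 for Krt8, 4 and 1 for Krt18, and 6 and 5 for Krt19.

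Fads1 passed with all 9 secretory markers as well and Fads2 with 8, led by Btn1a1 (r = 0.78, rho = 0.78 for Fads2). Elovl1, a very long chain elongase, passed with all 9, with a median r of 0.55. Fasn passed with 7 of 9, with a median r of 0.38, and Elovl5 was negative with 4. The 9 markers summed to a median intensity of 30942 in E2F1 null, 46788 in E2F2 null, 43680 in E2F3 heterozygous and 33624 in wild type tumours. The ranges were 4410 to 106277, 5609 to 127280, 14763 to 101533 and 9627 to 108943 in the same order, so the spread within each group exceeded the difference between medians. Their part in the values of Fads2 and Acss2 by genotype was not tested.

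Adipocyte markers were followed because fat cells of the mammary pad make the same lipids. Of 10 listed markers 5 were tested, and 21 of 65 tests with fatty acid genes were positive (32.3%) and 1 negative, against 12.5% and 17.1% of all tests of fatty acid genes. For sterol genes 3 of 75 tests were positive and 4 negative, against 14% and 18.5%. The markers differed from each other. Over the 31 members, Pparg was positive with 10 and negative with 4, and Cidea was positive with 9 and negative with 0. Adipoq was positive with 3, Retn with 2 and Fabp4 with 0, and Fabp4 was negative with 3. With Adipoq, the defining adipokine, Fasn had r = 0.47 (adjusted p = 0.00235) and with Cidea r = 0.62 (adjusted p = 1.66e-04, permutation, 53 label numbers), and with Fabp4 r = 0.26 (adjusted p = 0.120). Adipoq lay between 2.88 and 10.55 in E2F1 null, 2.90 and 11.17 in E2F2 null, 2.75 and 8.95 in E2F3 heterozygous and 2.56 and 10.59 in wild type tumours. Its medians were 4.40, 5.25, 5.61 and 5.30, all below the filter level of 6.31. The part of fat cells in the values of Fasn was not tested.

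**Figure D5:**
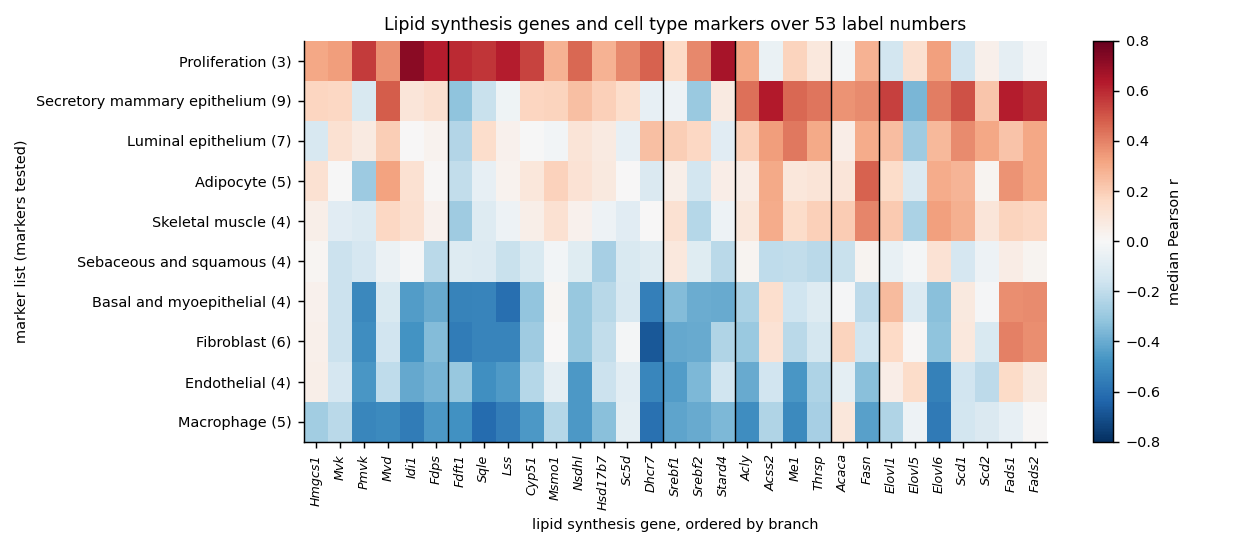
Median Pearson correlation over 53 label numbers between each of 31 lipid synthesis genes (horizontal axis, ordered by branch) and the tested markers of 10 cell types or states (vertical axis, number of markers in brackets). Sterol genes are red with proliferation and blue with macrophage markers, and fatty acid genes other than Elovl5 are red with secretory markers.

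Some listed partners of the pathways moved with the sterol enzymes. Of the 18 further sterol genes, Tmem97, a sterol-responsive regulator of NPC1, was positive with 13 of 15 sterol enzymes (median r = 0.64, up to 0.88 with Fdps), and Tm7sf2, a sterol reductase, with 12 (median r = 0.58), where 14% of all tests of sterol enzymes were positive. With the 13 fatty acid genes, Tmem97 was positive with 5 and Tm7sf2 with 7, where 12.5% of all tests were. Abcg1 and Abca1, which export cholesterol from cells, were negative with 13 and 12 of 15 sterol enzymes (median r = -0.62 and -0.57), and Mylip, the ligase that removes the LDL receptor, with 12 (median r = -0.55), where 18.5% of all tests were negative. With the 13 fatty acid genes, Abcg1, Abca1 and Mylip were negative with 5, 4 and 4, where 17.1% of all tests were.

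Other partners passed with more genes of the other branch than of the one they were listed under. Of the listed fatty acid genes, Hsd17b12, an elongation reductase, was positive with 10 sterol enzymes and 0 fatty acid members, Mid1ip1, a relative of Thrsp, with 9 and 0, and Mcat, of mitochondrial fatty acid synthesis, with 6 and 0. Of the listed sterol genes, Lpin1, a phosphatidate phosphatase, was positive with 3 sterol enzymes and 10 fatty acid members, and Npc2 was negative with 4 and 8. Hsd17b12 was also negative with 2 fatty acid members, and Npc2 positive with 1. Of all tests of sterol enzymes 14% were positive and 18.5% negative, and of fatty acid members 12.5% and 17.1%. The counts of 0, the 3 of Lpin1 and the 4 of Npc2 are near those shares. A difference between the branches was not tested. These 10 partners were named after their values were seen, and Abca1 and Abcg1 are also expressed by macrophages, whose markers moved the same way.

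By the largest correlation with Hmgcs1 or Fasn, the partners that stood first all belonged to Fasn. They were Olah, the thioesterase that releases medium-chain fatty acids in milk (r = 0.67), Acat1, which makes acetoacetyl-CoA in mitochondria (r = 0.67), Npc2 and Npc1 of lysosomal cholesterol export (r = -0.62 and -0.57), Cyb5r3, a reductase of cytochrome b5 (r = -0.60), Fabp3, a fatty acid carrier (r = 0.58), Gpam, which starts glycerolipid synthesis (r = 0.56), and Acacb, the second acetyl-CoA carboxylase (r = 0.55). Adjusted p was at most 3.55e-04 for r in these 8 (permutation, 53 label numbers). Outside the pathways, the genes closest to Hmgcs1 over the 80 tumours were Higd1a (r = 0.62), Prc1 (0.60), Dbf4 (0.58), Crcp (0.58) and Kpna2 (0.58). Those closest to Fasn were Cluh (r = 0.75), Afg3l2 (0.75), Iars (0.75), Rrp12 (0.75) and Ndufaf4 (0.74). These 10 values are descriptions with no test.

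Myc itself was positive with 13 of the 31 members, led by Srebf1 (r = 0.58), Elovl6 (r = 0.57) and Fasn (r = 0.52). Of all tested genes, 7.94% were positive with Srebf1, 19.6% with Elovl6 and 18.3% with Fasn, and over all tests of sterol, fatty acid and control members 14%, 12.5% and 12.8% were positive. Without the 2 label numbers farthest from the median of the member, these 3 values of r were 0.43, 0.40 and 0.39. The rank correlation of Myc with Srebf1 did not pass (rho = 0.42, adjusted p = 0.0798, permutation, 53 label numbers). Myc itself lay between 12.48 and 13.92 in all 80 tumours. The lowest value was that of E2F1 null replicate 6, the array that stood apart. Srebf1, Elovl6 and Fasn were also lowest in that array, and its part in their correlations with Myc was not tested.

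Other probe sets of the same genes were compared with the ones used. Among 25 further probe sets of 20 members that passed the intensity filter, the median correlation with the used probe set over the 80 tumours was 0.91, and 18 were above 0.8. The lowest was that of a second probe set for Mvk, 0.09. The others not above 0.8 belonged to Scd2 (0.40 and 0.71), Lss (0.41), Hsd17b7 (0.57), Srebf2 (0.61) and Elovl1 (0.75). Hmgcs1, Fdft1 and Elovl1 were each read by a probe set whose name carries the suffix for possible cross-hybridisation. The 3 other probe sets of Hmgcs1 had r = 0.94, 0.93 and 0.86 with the used one. The further probe sets that passed the filter had r = 0.93 for Fdft1, and 0.98 and 0.75 for Elovl1.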

How the data were processed

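RNA of 80 mammary tumours was measured on Affymetrix arrays. The deposited values are MAS5 intensities made with Affymetrix Expression Console, per the submitters' processing notes, with no version stated. The trimmed mean of each array (2% trim) lay between 500.17 and 500.22. No array had missing values, and the number of arrays limits the precision. The deposited intensities were turned to log2(intensity + 5) here. Of 22690 probe sets 64 controls were left out, and of the rest 20380 were named for 1 gene, 691 for several and 1555 for none; only the first were used. A gene was tested where any of its probe sets exceeded 74.6, the 40th percentile of all values, on at least 10 arrays. Of the probe sets that did so, the brightest by mean was used.

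Genotypes were compared on all 80 arrays in R 4.3.3 (limma 3.58.1, with statmod 1.5.0 for the block) with the label number as a random block (consensus correlation 0.159), an intensity trend and robust moderation. P-values were two-sided and Benjamini-Hochberg adjusted over 8769 genes. The 3 comparisons with wild type share its tumours. Correlations were taken over 53 label number means with two-sided permutation p-values from 100000 resamples, adjusted for each member over the 8768 other tested genes and not over the members alone as first planned. The alternatives were other pseudocounts, filters, normalization, moderation, probe set rules, units, blocks and samples.

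The text names every listed member, and other pathway genes by the size of their correlation with Hmgcs1 or Fasn; others are marked as chosen after their values were seen. The members and gene lists were chosen with earlier results of these data known. Promoter windows came from RefSeq, build GRCm38.p6.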

Additional observations from a re-analysis of the deposited data

How the results depend on the processing

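No member passed the adjusted threshold in any pairwise comparison under any of 12 settings each, nor in the F test under 11 (limma); the smallest adjusted p over these settings was 0.217, in E2F1 null against E2F2 null tumours. Of 2220 fold changes of members under the alternatives, 3 moved by more than 1 SE and 0 passed. The number of members correlated with Hmgcs1 was 6 as reported, 14 with all 80 tumours as units, and 15 with Sqle in place of Hmgcs1. In alternatives chosen after seeing the data it was 15 when adjusted over the members and both genes, and 22 with Cyp51 in place of Hmgcs1. Of all tested genes, 0.251% were positive with Hmgcs1, 21.4% with Sqle and 12.3% with Cyp51 over the label numbers. Shares are not given for the 80 tumours as units or for the adjustment over members. The cause of these differences was not tested. The other settings gave 5 to 9. The number correlated with Fasn was 21, and 19 to 24 under the alternatives. Of 360 single correlations under the alternatives, 337 kept direction and call, 5 lost the call, 17 gained it and 1 turned sign: Mvk with Fasn was -0.0131 with the mean of probe sets (adjusted p = 0.951, permutation), and the cause was not tested. No paired analysis was possible because replicate numbers follow accession order only, and no label number occurs in more than 1 genotype. Probe sets near the filter level of 6.31 limit what can be seen for dim genes. The dimmest member was Acaca, with 1 probe set and a mean of 6.35, and Mvk had a mean of 6.86.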
